A study of Mus musculus with 12 samples.

Results

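Intraflagellar transport (IFT) genes, BBSome genes and the genes for the motors that carry both along the cilium were examined in RNA from whole mouse embryos. The 36 genes were chosen by name, as rows of the deposited count table, out of 23284 rows. Symbols in the table matched 35 of them, and Ift43 was found under its older name 1700019E19Rik through the RefSeq synonyms. The count filter left 35 genes to test, since Kif17 had too few counts.

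Poly-A RNA-seq with paired reads of 50 bases was done on 12 single embryos whose strain background is given as C57BL/6 x 129Sv, stage matched at 9.0 days post coitum with about 9 to 10 somites. The labels call 4 embryos wild type and 8 embryos null for Tgif1 and Tgif2, a pair of related homeodomain repressors that restrain TGF-beta signalling. The series text describes the mutants as conditional and as lacking both alleles of each gene; no source used here gives the Cre driver, the deleted segments, the litters or the library batches. The libraries held 17296017 to 20080786 counts in wild type and 16802367 to 21346245 counts in the other group. Tgif1 lay at 58.5 to 64.2 CPM (counts scaled to library size by the TMM method) in wild type and at 5.50 to 6.87 CPM in the other group. Tgif2 was not lower, at 85.7 to 88.5 CPM against 84.4 to 116 CPM (adjusted p = 0.0958), and for that gene only the labels state the genotype, so the term mutant-labelled is used for these 8 embryos. Reads from exons outside a deletion still count toward the gene, so its level does not test the label.

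Cilia have no ribosomes, so their proteins are carried in and out along the axoneme by IFT trains. The IFT-B complex moves outward with heterotrimeric kinesin-2, and the IFT-A complex with dynein-2 serves the return journey and the entry of membrane proteins. The BBSome, a coat-like complex recruited by the small GTPase Arl6, rides on the trains and removes membrane proteins from the cilium. In the mouse embryo the primary cilium is the site of hedgehog signal transduction, and loss of IFT genes disturbs neural tube patterning and left-right asymmetry.

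Most of the transport genes that differed between the groups were lower in the mutant-labelled embryos. Of the 35 genes tested, 19 were lower, 4 were higher and 12 did not pass an adjusted p of 0.05 (edgeR quasi-likelihood test, Benjamini-Hochberg over all 14412 genes tested). Over all genes tested 24.9% were lower, 26.6% were higher and 51.5% were called in either direction, so a call by itself was common in these embryos. The median log2 fold change was -0.19 over the 35 genes and 0.01 over all genes tested. In 15 of the 35 every mutant-labelled embryo lay below every wild-type embryo, an arrangement found in 17.1% of all genes tested, and in 3 every one lay above, found in 17.5%. The differences were modest: 4 of the 35 genes were called lower and 1 was called higher by more than 1.5-fold. Among all 14412 genes tested, 670 were called lower and 1712 higher by more than 1.5-fold. When the test asked for a change beyond 1.2-fold, 10 of the 35 were still called lower and 2 higher, where 7.94% of all genes were lower and 14.4% higher. Once the dependence on GC content and transcript length had been removed, 20 were lower and 4 higher, where 31.2% of all genes were lower and 22.6% higher. In RNA from whole embryos, fewer cells of a type and less RNA per cell cannot be told apart.

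**Figure D1:**
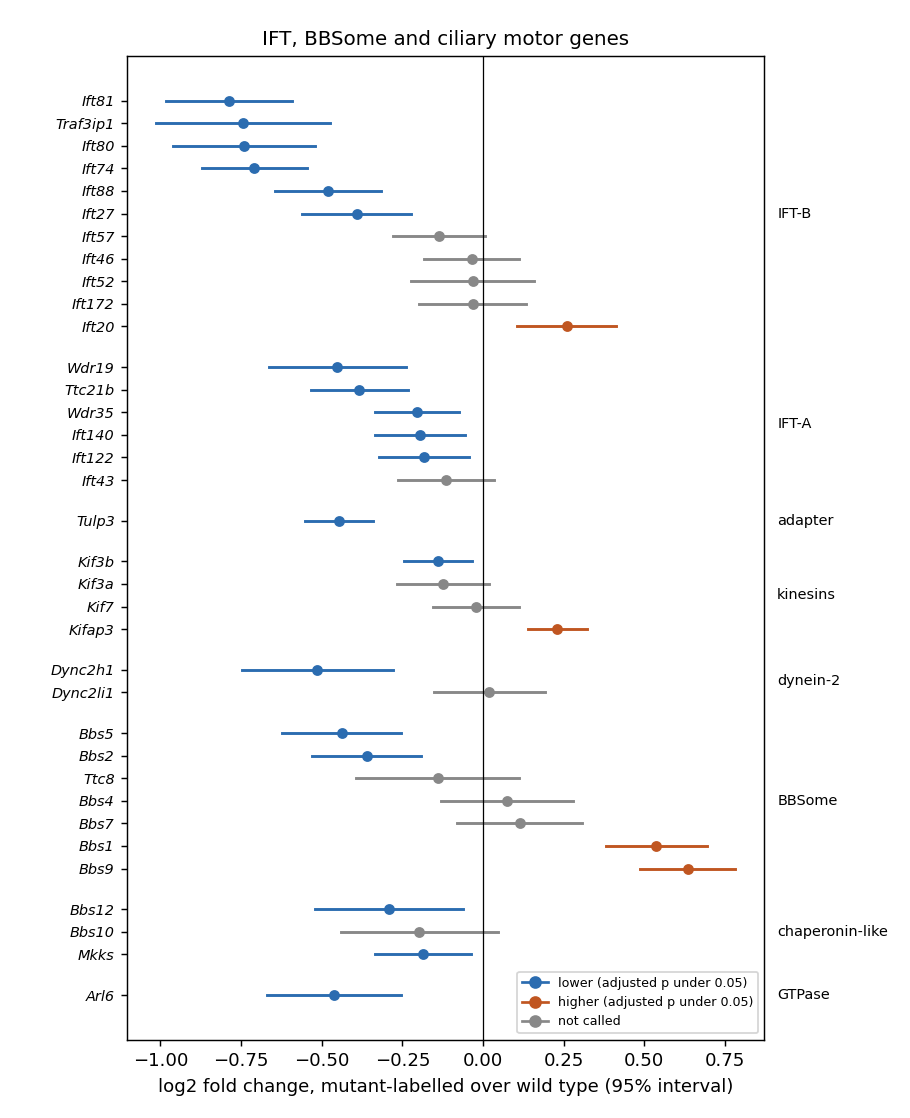
Log2 fold change of each tested transport gene, mutant-labelled over wild type (x axis), with 95% intervals, grouped by role; blue genes were called lower, orange genes higher and grey genes neither. The largest falls are in IFT-B (Ift81 at -0.79), and the largest rise is in the BBSome (Bbs9 at 0.63).

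The IFT-B genes did not all move alike. Of 11 tested, 6 were lower (54.5%), 1 was higher and 4 were not called, with a median log2 fold change of -0.39. Over all genes tested 24.9% were lower and 26.6% higher. Ift74 and Ift81 encode the paired subunits that bind tubulin cargo. Ift74 was measured at 58.7, 53.8, 50.6 and 53.4 CPM in the wild-type embryos, and at 29.8 (lowest), 32.0 (median) and 38.6 CPM (highest) in the mutant-labelled embryos. The groups lay well apart, and the fitted fall was 0.71 on the log2 scale (log2 fold change -0.71, SE 0.08) at an adjusted p of 2.59e-06; the mean fell by 38.8%. Ift81 was at 41.2, 34.2, 36.2 and 37.9 CPM in wild type and at 18.7, 21.4 and 27.9 CPM (lowest, median and highest) in the mutant-labelled group. The highest mutant-labelled embryo, number 7, was still below the lowest wild-type embryo, and the log2 fold change was -0.79 (SE 0.09, adjusted p = 5.64e-06).

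Ift80 and Traf3ip1 (also known as Ift54) encode peripheral subunits of the train. Ift80 was at 43.4, 39.3, 41.6 and 39.3 CPM in wild type and ranged from 19.0 to 30.9 CPM, with a median of 24.4, in the mutant-labelled embryos. Its log2 fold change was -0.74 (SE 0.10, adjusted p = 3.36e-05), with no overlap of the groups. Traf3ip1 was at 23.1, 22.5, 23.3 and 21.9 CPM in wild type, a narrow spread. The mutant-labelled embryos ran from 9.64 to 16.2 CPM with a median of 14.4, so all lay below wild type but differed more among themselves (log2 fold change -0.74, SE 0.13, adjusted p = 0.000177). Ift88, a core subunit whose loss removes cilia, fell by 0.48 on the log2 scale (SE 0.08), from 20.4 to 24.2 CPM in wild type to 13.9 to 18.2 CPM. Ift27, a small GTPase of the core that is needed to export the BBSome, fell by 0.39 (SE 0.08), from 29.2 to 30.5 CPM to 18.4 to 26.1 CPM.

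Ift20, a subunit that also sits at the Golgi, was the only IFT-B gene among the 11 that was called higher. It was at 32.1, 28.0, 27.2 and 29.8 CPM in wild type and at 30.9, 34.6 and 39.9 CPM (lowest, median and highest) in the mutant-labelled embryos. The lowest mutant-labelled embryo lay below the highest wild-type embryo, and the log2 fold change was 0.26 (SE 0.07, adjusted p = 0.00714). The intervals of the 4 genes that were not called all included 0. Ift172 was at -0.03 (95% interval -0.20 to 0.13), Ift52 at -0.03 (-0.22 to 0.16) and Ift46 at -0.04 (-0.18 to 0.11). A stretch of 260 bases of Ift46 has a near-identical copy in Ube2l6, so some of its reads are uncertain. Ift57 was at -0.14 (-0.28 to 0.01) and became a call only without mutant-labelled embryo 3 (adjusted p = 0.0383).

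Subunits that bind each other directly did not always move alike. Both members of the Ift81 and Ift74 pair fell. Traf3ip1 fell and its partner Ift20 rose. Ift27 fell, while its partner Hspb11 (Ift25) had a log2 fold change of -0.03 (95% interval -0.27 to 0.22). These pairs were picked after the values were seen, and the difference between partners was not tested.

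**Figure D2:**
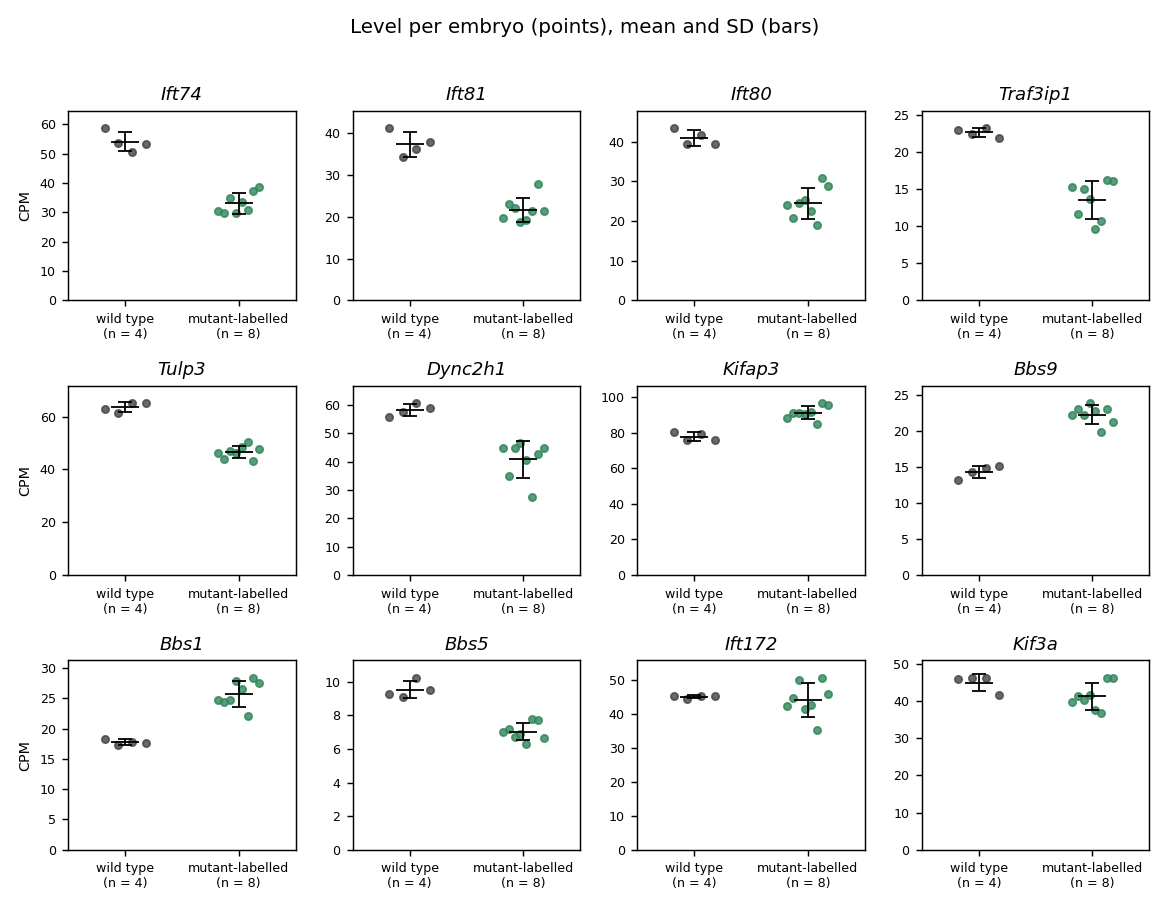
CPM (y axis, from 0) in each embryo for 12 transport genes; points are embryos, bars are the mean and SD of 4 wild-type and 8 mutant-labelled embryos. The groups lie apart in the first 10 panels and overlap in Ift172 and Kif3a.

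Promoters of these genes were read because ciliary genes are textbook targets of RFX transcription factors, which bind a motif called the X-box. RefSeq windows on GRCm38.p6, 250 bases before to 50 bases after the start, were found for 32 of the 36 genes; Ift80, Ift81, Ift122 and Dync2li1 had none. The X-box, read on either strand, was found in 3 of 32 windows (9.38%) and in 1.75% of the 27025 genes in the RefSeq promoter table. Its half-site GTTGCC, read on either strand and also counted inside an X-box, was found in 13 of 32 (40.6%) against 14.1% of the genes in that table. The form of both motifs was settled after several had been tried. Half-sites were in the windows of 7 of the 16 lower genes with a window, 1 of the 4 higher genes, 4 of the 11 genes not called and in Kif17. A match describes letters in the window and is not a binding site.

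Every X-box match found in these windows is shown. They lie in only 3 genes, and Ift80 and Ift81 had no window, so a link between the motif and the calls was not tested. Ift57, not called, held a pair of them, at chr16:49699207-49699220 and chr16:49699234-49699246 on the plus strand, whose first bases are 87 and 60 bases before the start. Kif17, not tested, held 1 at chr4:138262178-138262190 on the plus strand, and Bbs1, called higher, held 1 at chr19:4906613-4906626 on the minus strand, just after its start. All are on GRCm38.p6, and the strand given is that of the gene. Printed along that strand, each begins with the half-site. The first Ift57 match and the Bbs1 match fit the motif when read on the opposite strand.
Ift57 first: GTTGCCGTGGTGAC
Ift57 second: GTTGCCTGGTAAC
Kif17: GTTGCCCAGCAAC
Bbs1: GTTGCCAAGGCGAC

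The 250 bases before the start are printed for 4 genes that differ in call and in motif, 5′ to 3′ along the gene, with each half-site in capitals. Traf3ip1 (chr1:91494418-91494667, plus strand) and Ift27 (chr15:78174082-78174331, minus strand) were lower and hold 1 half-site each. Ift57 (chr16:49699044-49699293, plus strand) was not called and holds the X-box pair. Bbs9 (chr9:22475465-22475714, plus strand) was higher and holds no match in this window.
Traf3ip1: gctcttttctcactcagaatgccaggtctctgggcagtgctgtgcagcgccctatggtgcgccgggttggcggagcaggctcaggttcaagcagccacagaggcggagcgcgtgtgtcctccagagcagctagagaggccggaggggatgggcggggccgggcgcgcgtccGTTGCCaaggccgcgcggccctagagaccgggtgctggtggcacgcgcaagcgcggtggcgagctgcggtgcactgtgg
Ift27: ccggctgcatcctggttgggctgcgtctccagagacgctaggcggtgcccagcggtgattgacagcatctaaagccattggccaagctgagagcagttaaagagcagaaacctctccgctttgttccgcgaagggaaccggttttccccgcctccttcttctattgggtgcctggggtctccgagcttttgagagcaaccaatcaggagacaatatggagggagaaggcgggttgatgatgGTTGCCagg
Ift57: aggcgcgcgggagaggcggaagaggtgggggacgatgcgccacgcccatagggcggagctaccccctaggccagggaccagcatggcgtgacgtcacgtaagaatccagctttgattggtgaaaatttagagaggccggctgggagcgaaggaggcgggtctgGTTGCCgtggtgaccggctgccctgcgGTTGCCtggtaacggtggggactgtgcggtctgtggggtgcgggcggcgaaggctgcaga
Bbs9: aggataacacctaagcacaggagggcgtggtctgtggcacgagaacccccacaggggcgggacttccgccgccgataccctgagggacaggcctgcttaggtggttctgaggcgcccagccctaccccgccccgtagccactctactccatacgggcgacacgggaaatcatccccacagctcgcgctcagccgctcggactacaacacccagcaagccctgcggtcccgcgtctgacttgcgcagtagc

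Among the IFT-A genes 5 of 6 were lower and none was higher, with smaller changes than in IFT-B (median -0.20). The shares over all genes tested were 24.9% lower and 26.6% higher. Ttc21b encodes a subunit whose loss in the mouse raises hedgehog signalling. It was at 35.6, 34.1, 32.7 and 30.8 CPM in wild type and at 22.8, 25.6 and 29.5 CPM (lowest, median and highest) in the mutant-labelled embryos, with no overlap (log2 fold change -0.38, SE 0.07, adjusted p = 0.000345). Wdr19, a core subunit, was at 17.6, 17.5, 16.8 and 15.95 CPM in wild type and at 9.06, 12.5 and 14.5 CPM in the mutant-labelled group. Mutant-labelled embryo 6 was the lowest, all 8 lay below wild type, and the log2 fold change was -0.45 (SE 0.10, adjusted p = 0.00151). Wdr35 (-0.20), Ift140 (-0.20) and Ift122 (-0.18) fell by less. Ift122 did not pass when wild-type embryo 3 (adjusted p = 0.0604) or 4 (0.105) was omitted, and neither did Ift140 (0.0590 and 0.0505). Ift43 was not called, at -0.11 (95% interval -0.26 to 0.03).

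Tulp3, the adapter that links IFT-A to membrane receptors and brings them into the cilium, was lower in all 8 embryos. It was at 62.7, 61.3, 65.1 and 65.2 CPM in wild type and at 43.1, 46.7 and 50.3 CPM (lowest, median and highest) in the mutant-labelled embryos. The groups were far apart relative to their spread, and the log2 fold change was -0.45 (SE 0.05, adjusted p = 3.36e-06). Gpr161, a receptor that Tulp3 carries, was also lower (log2 fold change -0.58, SE 0.12, adjusted p = 0.000912). It belongs to a further list of ciliary membrane and hedgehog genes. Of 18 tested there, 8 were lower, 2 higher and 8 not called, where 24.9% of all genes were lower and 26.6% higher. Arl13b (0.02) and Inpp5e (0.08) were among those not called. A joint fall of Tulp3 and its cargo was not tested.

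The motor genes went in both directions. Of the 6 tested, 2 were lower (33.3%), 1 was higher (16.7%) and 3 were not called. Over all genes tested 24.9% were lower and 26.6% higher, so with 6 genes these counts do not set the motors apart. Kifap3, the non-motor subunit of heterotrimeric kinesin-2, was at 80.5, 75.9, 79.3 and 75.8 CPM in wild type and at 85.1, 91.1 and 96.8 CPM (lowest, median and highest) in the mutant-labelled embryos. All 8 lay above wild type, a small rise of 0.23 on the log2 scale (SE 0.04, adjusted p = 0.000419). Its motor partner Kif3b went the other way, from 48.4, 45.8, 44.6 and 42.7 CPM to 38.6, 41.5 and 43.2 CPM. The groups overlapped at their edges, and the log2 fold change was -0.14 (SE 0.05, adjusted p = 0.0276). Omission of wild-type embryo 1 (adjusted p = 0.109) or 2 (0.0682) ended the Kif3b call. Kif3a, the other motor subunit, was not called, at -0.12 (95% interval -0.27 to 0.02).

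Dync2h1, the dynein-2 heavy chain, was the most lowered of the 6 motor genes tested among the 36 chosen genes. It was at 55.8, 57.6, 60.8 and 59.1 CPM in wild type, and the mutant-labelled embryos ran from 27.5 to 46.6 CPM with a median of 43.7. All 8 were below wild type, with mutant-labelled embryos 6 (27.5 CPM) and 2 (34.9 CPM) the lowest, and the log2 fold change was -0.51 (SE 0.11, adjusted p = 0.00125). Those embryos were also the lowest in long transcripts at large. Over 1965 genes with transcripts longer than 6000 bases, the median log2 ratio to the mean of the mutant-labelled group was -0.21 in embryo 6 and -0.09 in embryo 2, and between 0.02 and 0.10 in the other 6. The Dync2h1 transcript has 14264 bases. Without both embryos its log2 fold change was -0.40 (adjusted p = 2.00e-05), and with the GC and length trends removed it was also -0.40, so the call held. Dync2li1, the light intermediate chain of the same motor, was not called, at 0.02 (95% interval -0.15 to 0.19). Kif7, a kinesin of the ciliary tip that regulates Gli proteins, was at -0.02 (-0.15 to 0.11), but it was called lower at -0.20 once the GC and length trends were removed (adjusted p = 0.00348). An antisense transcript covers 19.1% of the Kif7 exon bases, and no source used here says whether counting used strand. Kif17, a homodimeric kinesin-2 gene, was barely detected, with 14 counts in all 4 wild-type libraries together and 41 in all 8 mutant-labelled libraries.

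The BBSome itself did not fall as a block. Of 7 subunit genes 2 were lower and 2 higher (28.6% each), and 3 were not called. The median log2 fold change was 0.07. Over all genes tested 24.9% were lower and 26.6% higher, so these counts lay near the shares over all genes. Bbs9, a core scaffold subunit, was at 13.2, 14.2, 14.9 and 15.1 CPM in wild type and at 19.8, 22.5 and 23.9 CPM (lowest, median and highest) in the mutant-labelled embryos. Every mutant-labelled embryo was above every wild-type embryo, a rise of 55.2% in the mean and of 0.63 on the log2 scale (SE 0.07, adjusted p = 3.24e-06). Bbs1, the subunit that binds Arl6 and cargo, was at 18.3, 17.2, 17.9 and 17.6 CPM in wild type and at 22.1, 25.6 and 28.4 CPM in the mutant-labelled embryos. It too was higher in all 8, by 0.54 on the log2 scale (SE 0.07, adjusted p = 2.44e-05). Bbs5, which carries lipid-binding domains, went the other way, from 9.27, 9.12, 10.2 and 9.52 CPM to 6.31, 6.96 and 7.76 CPM. All 8 were below wild type (log2 fold change -0.44, SE 0.09, adjusted p = 0.000667). Bbs2, another core subunit, fell by 0.36 (SE 0.08). Ttc8 (-0.14), Bbs4 (0.07) and Bbs7 (0.11) were not called.

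Genes that assemble or recruit the BBSome were lower or not called. Arl6, the GTPase that brings the BBSome to membranes, ranged from 21.4 to 25.4 CPM in wild type and from 15.0 to 21.1 CPM in the mutant-labelled embryos, which lay just below (log2 fold change -0.46, SE 0.10, adjusted p = 0.00105). The chaperonin-like genes Bbs12 (-0.29, adjusted p = 0.0342) and Mkks (-0.19, adjusted p = 0.0352) had overlapping groups and weak calls. The Bbs12 call was lost when wild-type embryo 1, 2 or 4 or mutant-labelled embryo 1 or 5 was left out, with adjusted p from 0.0522 to 0.114. The Mkks call was lost without wild-type embryo 1, 2 or 4 or any of mutant-labelled embryos 1 to 5, with adjusted p from 0.0501 to 0.107, and another gene model on the same strand covers 29.7% of its exon bases. Bbs10, the third chaperonin-like gene, was not called (-0.20, 95% interval -0.44 to 0.05).

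The pattern was present in each mutant-labelled embryo. The median log2 ratio to the wild-type mean over the 35 genes lay between -0.29 and -0.12 in the 8 mutant-labelled embryos. In the 4 wild-type embryos it lay between -0.02 and 0.05. Each wild-type embryo was compared with a mean that includes it, which draws its ratio toward that mean. The median over all genes stayed between -0.0024 and 0.0062. The IFT-B median ran from -0.46 to -0.18 and the IFT-A median from -0.43 to -0.16 in the mutant-labelled embryos. The BBSome median ran from -0.15 to 0.16 there and so spanned the wild-type level. Each mutant-labelled embryo lay below the wild-type range in 17 to 19 of the 19 lower genes. Since the genes were also called in these embryos, these counts describe how evenly the calls were shared and are no second test.

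Mutant-labelled embryos 6 and 7 marked the ends of the range. Embryo 6 had the lowest value of the 8 in 14 of the 35 genes and the lowest median, -0.29. It was also low in long transcripts, as given for Dync2h1, and carried placental lactogen-family transcripts (Prl8a2 at 35.9 CPM and Prl3d1 at 7.23 CPM, each below 1 CPM in every other embryo). Without embryo 6 the counts were again 19 lower and 4 higher, where 3628 of all 14374 genes tested were lower and 3896 higher. Embryos 2 and 6 were also left out together, after the data had been seen. The counts were then 17 lower and 4 higher, where 3640 of all 14311 genes tested were lower and 3858 higher. Embryo 7 had the highest value of the 8 in 16 of the 35 genes.

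**Figure D3:**
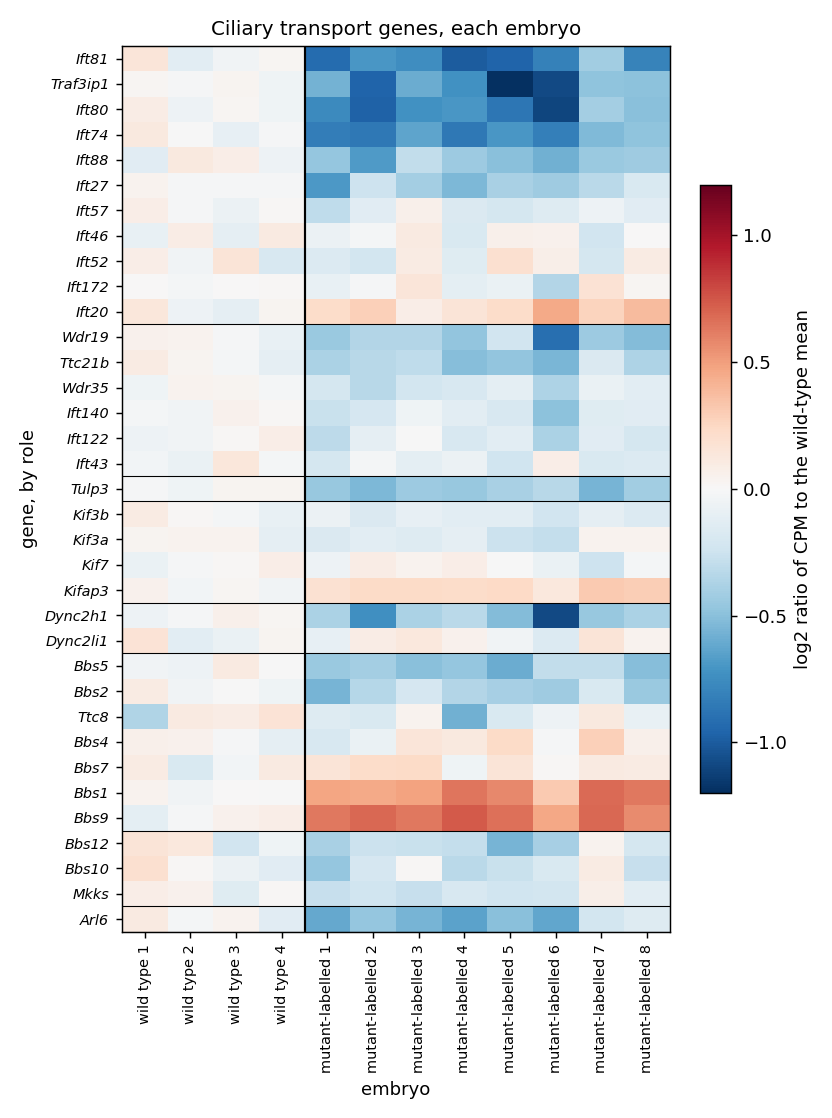
Log2 ratio of CPM to the wild-type mean (colour, blue lower and red higher) for the 35 tested transport genes (rows, by role) in each of 12 embryos (columns). The IFT-B genes at the top are blue across all 8 mutant-labelled embryos down to Ift27, and Bbs1 and Bbs9 are red across all 8.

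Marker genes of tissues and cell types also differed between the groups. For comparison, 24.9% of all genes tested were lower and 26.6% higher. The summed level of 5 heart markers was 1084 to 1342 CPM in wild type and 1647 to 2946 CPM in the mutant-labelled embryos, with all 5 genes called higher. That of 5 endothelial markers was 315 to 377 against 413 to 576 CPM, with 4 of 5 called higher. The sums of 6 paraxial and posterior mesoderm markers overlapped, at 178 to 290 and 138 to 188 CPM. Of these 6 genes 5 were called lower and Meox1 was not called, and the groups overlapped in each. For 7 neural progenitor markers the sums overlapped at 422 to 544 and 366 to 509 CPM, with 1 of 7 lower. Primitive red cell markers (5 genes, 776 to 1296 against 36.5 to 1665 CPM) and yolk sac markers (5 genes, 417 to 1481 against 498 to 2440 CPM) had none called. In a fit that took the red cell markers as a covariate, 16 transport genes were lower and 4 higher. Of all 14412 genes tested in that fit, 3335 were lower and 3610 higher. The 6 trophoblast and decidua markers summed to 1.97 to 2.49 against 7.34 to 51.5 CPM; in the 7 mutant-labelled embryos other than embryo 6 most of this was Dcn, a matrix gene that other mesenchyme expresses too. None of these lists had a marker at 0 in all 12 libraries. Their part in the lower transport genes was not tested.

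Genes of motile cilia were mostly low in both groups, and few were called. Of 16 such genes 13 were tested, 1 was lower (Ccdc39, at -0.76) and none was higher. Over all genes tested 24.9% were lower and 26.6% higher. Their summed level was 33.0 to 38.5 CPM in wild type and 29.4 to 35.7 CPM in the mutant-labelled embryos, most of it from Ccdc40. Foxj1, the master regulator of motile cilia, lay between 1.67 and 2.32 CPM in wild type and between 0.810 and 1.98 CPM in the mutant-labelled embryos and was not called.

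Divided by the length of the longest annotated coding transcript, the levels differed among subunits of 1 complex. The isoforms expressed were not measured, so the orders given here and for the BBSome depend on that choice of length. In wild type the IFT-B order was led by Ift27 at 29.2 ± 0.630 CPM per kb (SD, n = 4), Ift20 at 25.6 ± 1.92 and Ift74 at 25.3 ± 1.57, and it ended with Traf3ip1 at 6.53 ± 0.173. Ift20 and Ift74 differed by less than their SDs. In the mutant-labelled embryos Ift20 led at 30.7 ± 2.53 CPM per kb (SD, n = 8), followed by Ift27 at 22.2 ± 2.40 and Ift52 at 20.7 ± 2.39, which did not differ beyond their spread, and Ift74 stood at 15.5 ± 1.65. In IFT-A, Ift43 was at 34.1 ± 2.23 CPM per kb in wild type and Wdr19 at 2.70 ± 0.119, with the other 4 between 7.45 and 9.39.

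The BBSome order differed between the groups. In wild type Ttc8 (8.82 ± 1.38 CPM per kb), Bbs5 (6.50 ± 0.342) and Bbs2 (5.79 ± 0.272) stood above Bbs9 (4.11 ± 0.242) and Bbs1 (3.17 ± 0.0808). In the mutant-labelled embryos Ttc8 was at 8.01 ± 1.08 CPM per kb and Bbs9 at 6.37 ± 0.362, above Bbs5 (4.79 ± 0.349), Bbs4 (4.73 ± 0.520), Bbs1 (4.60 ± 0.383) and Bbs2 (4.51 ± 0.390). Those last 4 did not differ beyond their spread. Bbs7 was at 3.004 ± 0.278 CPM per kb in wild type, where it did not differ from Bbs1 beyond their spread, and at 3.25 ± 0.217 in the mutant-labelled embryos, below the other 6.

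**Figure D4:**
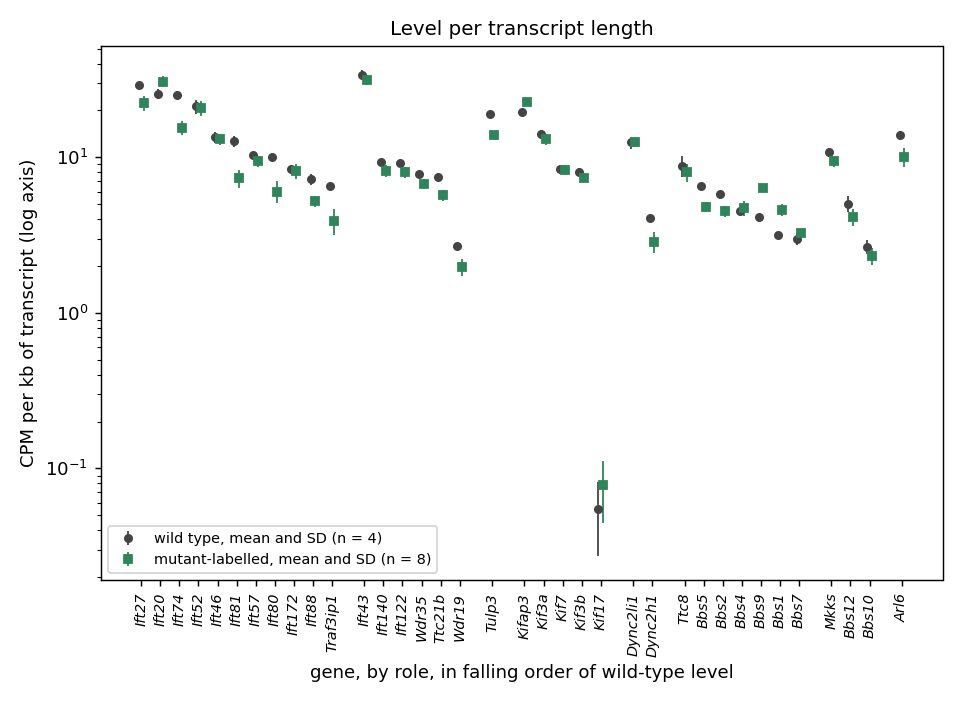
CPM per kb of the longest coding transcript (log axis) for each of the 36 genes, by role, as mean and SD over 4 wild-type and 8 mutant-labelled embryos. Ift43 and Ift27 have the highest values in wild type, and Kif17 is far below the others at 0.0546.

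Other genes of the same machinery, in lists made with earlier results known, also gave more lower than higher calls. Of 48 such genes 45 were tested, 22 were lower (48.9%) and 5 were higher (11.1%), with a median log2 fold change of -0.16. Over all genes tested 24.9% were lower and 26.6% higher, with a median of 0.01. The 5 higher genes became 3 without wild-type embryo 2, 3 or 4. Among further IFT-B genes 4 of 7 were lower (57.1%). Ttc26 (Ift56) fell from 17.8 ± 1.43 CPM (SD, n = 4) to 10.6 ± 0.960 CPM (SD, n = 8), a log2 fold change of -0.75 (SE 0.09). Ttc30a1 (-0.40), whose reads may be shared with its near-identical copy Ttc30a2, and Rabl2 (-0.36), a GTPase that lets trains leave the ciliary base, were also lower.

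Among further motor subunits and ciliary kinases 4 of 10 were lower and 1 was higher, where 24.9% of all genes tested were lower and 26.6% higher. Wdr60, a dynein-2 intermediate chain, averaged 14.3 ± 0.840 CPM over the wild-type embryos and 7.77 ± 1.18 CPM over the others (-0.88 on the log2 scale, SE 0.11, adjusted p = 8.76e-06). Mak, a kinase that limits cilium length, fell from 1.67 ± 0.259 to 0.916 ± 0.151 CPM (-0.85, SE 0.18). Kif3c, an alternative partner of Kif3a, rose from 21.4 ± 1.54 to 37.3 ± 3.01 CPM in all 8 embryos (0.80, SE 0.07, adjusted p = 5.55e-07). An antisense gene covers 37.8% of the Kif3c exon bases, so its reads are uncertain.

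Among BBSome partners and subunits of the CCT chaperonin, which works with the BBS chaperonin-like proteins, 6 of 10 were lower and 2 were higher. Over all genes tested 24.9% were lower and 26.6% higher. The abundant Cct8 (803 ± 16.2 to 644 ± 25.1 CPM, log2 fold change -0.32) and Cct2 (830 ± 27.5 to 668 ± 38.9 CPM, -0.31) fell. Rab8a, a GTPase of ciliary membrane delivery, rose by 0.25 (SE 0.04). Among ciliary membrane, lipidated-cargo and hedgehog genes 8 of 18 were lower (44.4%) and 2 were higher (11.1%). Rab23, a GTPase that restrains hedgehog signalling, fell from 52.7 ± 0.659 to 33.3 ± 1.92 CPM (-0.66, SE 0.05, adjusted p = 1.18e-07). The hedgehog genes Gli1 (-0.395), Gli3 (-0.24) and Smo (-0.16) were also lower, and Ptch1 (-0.27) and Gli2 (-0.08) were not called. Those 5 were named after their values were seen, and hedgehog signalling itself was not tested. Pde6d, which ferries lipidated proteins into the cilium, rose from 27.6 ± 1.64 to 36.0 ± 3.18 CPM (0.38, SE 0.07). The remaining higher genes, named after their values were seen, were the BBSome subunit gene Bbip1 (0.16) and the hedgehog inhibitor gene Sufu (0.18).

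**Figure D5:**
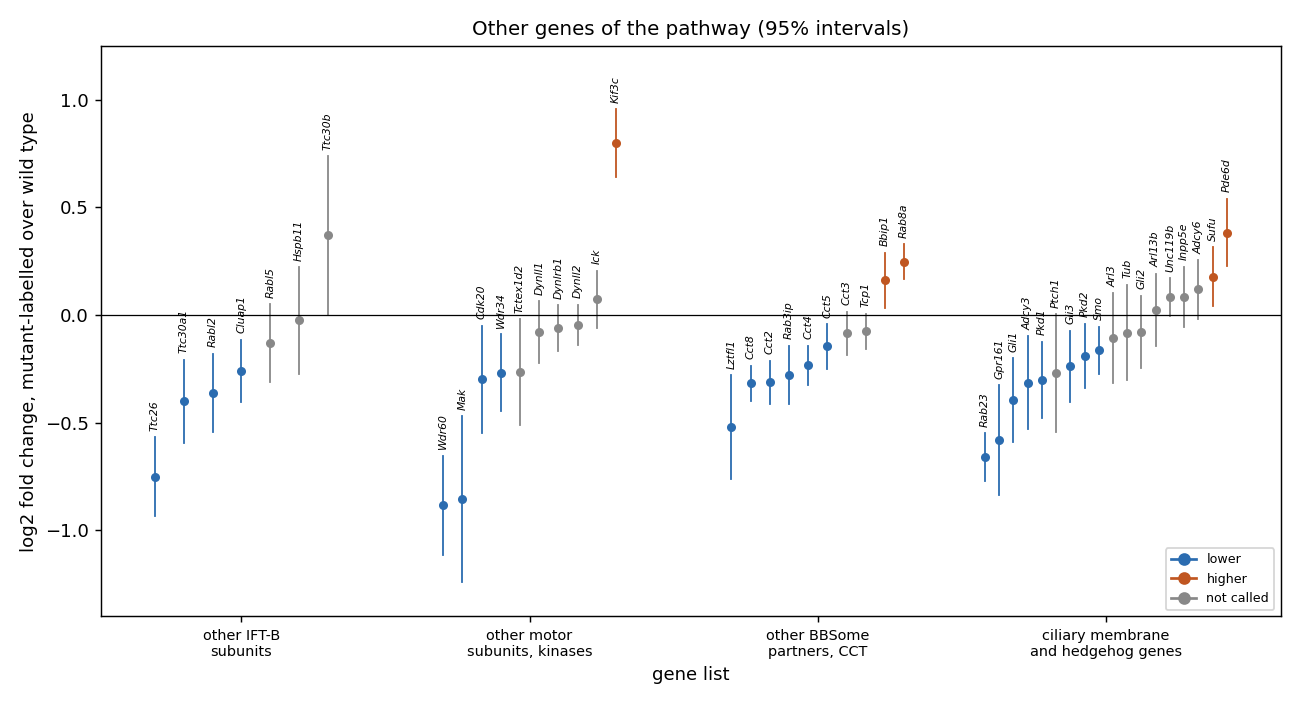
Log2 fold change, mutant-labelled over wild type (y axis), with 95% intervals, for the 45 tested genes of 4 related lists (x axis). Wdr60 is the lowest at -0.88 and Kif3c the highest at 0.80.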

How the data were processed

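Poly-A RNA-seq was done on 12 single embryos; the values used are raw counts for each gene symbol, as the authors deposited them. The submitters' processing notes name STAR, featureCounts, FastQC, DESeq2 and the mm9 build; no source used here gives versions, the strand setting or the treatment of multi-mapping reads. Total counts were 16802367 to 21346245 per embryo. Groups follow the labelled genotype; embryos were numbered within a group in sample order, since the labels give no replicate numbers, and p-values measure the spread between embryos.

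The test was edgeR's (version 4.0.16, under R 4.3.3; TMM, filterByExpr, robust quasi-likelihood F test, Benjamini-Hochberg over 14412 genes, threshold 0.05); the SE is the log2 fold change over the square root of F. Tests were tried on simulated data. Alternatives included DESeq2 1.42.0, limma-voom 3.58.1, other scalings and filters, a test against 1.2-fold, removal of GC and length trends (lengths from GENCODE M21), covariates and embryos left out. Copies were found by BLAST 2.17.0 (200 bases or more at 95% identity or more); ratios of long transcripts used log2(CPM + 0.1).

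The genes, lists and tests were chosen with earlier results of these data known. Genes named with full values are the 3 with the lowest p in IFT-B, in IFT-A with Tulp3, among motors, and in BBSome, chaperonin-like and Arl6 genes, all members called higher, called members with a log2 fold change of 0.5 or more in size, Tgif1, Tgif2, and up to 3 with the lowest p of each further list.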

Additional observations from a re-analysis of the deposited data

Results flagged for a closer look

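In 6 of 98 groups examined (6.12%) 1 embryo stood far from the others of its group; chance flags about 1 in 20 groups. In the mutant-labelled group it was embryo 7 each time, high in Ift81 (27.9 CPM, the other 7 between 18.7 and 23.0), Mkks (35.7 CPM, the others between 28.1 and 31.3) and Wdr60 (10.4 CPM, the others between 6.66 and 8.10). Ift81 and Wdr60 were called lower with and without this embryo, and Mkks had an adjusted p of 0.00429 without it. In wild type, Ift27 was high in embryo 1 (30.5 CPM, the others between 29.2 and 29.3), Ift172 was low in embryo 2 (44.3 CPM, the others between 45.3 and 45.4) and Kif3a was low in embryo 4 (41.6 CPM, the others between 45.8 and 46.1).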

How the results depend on the processing

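Of the 23 called genes, 12 kept their call in each of the 26 settings tried and 11 lost it in at least 1. None of the 23 reversed. Ift20, Ift27, Wdr35, Ttc21b, Kifap3 and Bbs2 lost the call only in the test against 1.2-fold. The test against 1.2-fold left 10 lower and 2 higher transport genes, and 6 lower and 1 higher of the further pathway genes, where 7.94% of all genes were lower and 14.4% higher; the stricter null explains the smaller counts by construction. With each embryo left out in turn, 15 to 19 transport genes were lower and 4 higher, their median log2 fold change was -0.21 to -0.16, and 18 to 23 further pathway genes were lower and 3 to 5 higher. In those fits 3107 to 3683 of all genes tested (14369 to 14545) were lower and 3369 to 3896 higher. Leaving out wild-type embryo 1 with mutant-labelled embryo 2 gave 15 lower and 4 higher transport genes. Of all 14489 genes tested in that fit, 2995 were lower and 3347 higher. Of the 12 genes not called, 4 were called in some setting: Ift57 without mutant-labelled embryo 3, Kif3a with sample quality weights (adjusted p = 0.0400), and Kif7 and Ift43 with the GC and length trends removed (Ift43 adjusted p = 0.00503), Ift43 also without mutant-labelled embryos 2 and 6 (0.0385). Bbs12 lost its call with the GC and length trends removed (adjusted p = 0.0661) and with the red cell covariate (0.0803), as did Mkks (0.0991) and Kif3b (0.0592) with that covariate. No paired or blocked analysis was possible because no source used here gives the litters or the library batches. The embryo numbers used here follow the order of the samples. Kif17, Ttc30a2, Dynlrb2 and Sstr3 had too few counts to pass the filter and were not tested.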

Other observations

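Ift52 and Kif3b lie 6.16 Mb and 3.51 Mb from Tgif2 on GRCm38. Ttc8 was at 15.4 CPM in wild-type embryo 1 and between 21.1 and 22.3 CPM in the other wild-type embryos; the mutant-labelled embryos lay between 13.3 and 21.5 CPM.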
